A study of Homo sapiens with 4 samples.

Results

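The genes examined here encode splicing factors and heterogeneous nuclear ribonucleoproteins (hnRNPs), and the rule that selects them uses gene names and transcript types. They are the protein-coding genes named SRSF with a number, HNRNP, SF3A or SF3B with a number, or SNRP, without readthrough genes whose names carry a hyphen. The rule found 54 genes among the 27694 listed, namely 12 SR protein genes, 21 hnRNP genes, 9 genes of the SF3A and SF3B complexes, 8 genes of the Sm core and 4 genes of proteins specific to the U1 or U2 particle. They were measured by RNA-seq in LN229, an established human glioblastoma cell line. Cells received 100 nM UM-164, a dual inhibitor of the kinases c-Src and p38, for 24 h (2 libraries), or vehicle, which was DMSO, for the same 24 h (2 libraries). No genetic change separated the groups, and both were grown in medium with serum. The question was how UM-164 alters the transcriptome of glioma cells, here for the genes of the splicing machinery.

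Introns are removed by the spliceosome, which assembles from small nuclear ribonucleoproteins (snRNPs), particles of a small nuclear RNA, a ring of Sm proteins and proteins of their own. The U1 snRNP recognises the start of an intron and the U2 snRNP, with its SF3A and SF3B complexes, recognises the branch point near its end. SR proteins bind exons and mostly promote their inclusion, while hnRNPs coat nascent RNA and often oppose it, so the balance of the 2 families helps to set which exons a cell keeps.

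Levels are given as FPKM (fragments corrected for transcript length and library size), which can be compared between genes. Depth cannot be read from FPKM, and counting error is therefore unknown. No source states that replicates were separate cultures, and p-values then measure only a spread that may be technical. For the 11516 genes whose mean was at least 1 FPKM over the 4 libraries, log2(FPKM + 0.5) was compared with limma and adjusted by the Benjamini-Hochberg method over all of them, and fold changes are on that scale, UM-164 over vehicle. With 2 libraries a side an exact two-sided permutation test cannot go below p = 0.33. Glioma and neural markers matched the label in part: VIM (346 and 426 FPKM in the UM-164 libraries, 623 and 494 FPKM in the vehicle libraries), NES, CD44, S100B, FABP7, SOX2 and OLIG2 were expressed, whereas the astrocyte marker GFAP did not exceed 0.12 FPKM. Of these 8 markers, VIM, NES and SOX2 were lower with UM-164 without overlap, as was GFAP at values near the floor. The 3 that were higher without overlap were S100B, FABP7 and OLIG2. S100B was at 536 and 559 FPKM in the UM-164 libraries and 328 and 305 FPKM in the vehicle libraries. FABP7 was at 66.4 and 74.4 FPKM in the UM-164 libraries and 29.2 and 29.5 FPKM in the vehicle libraries. OLIG2 was at 6.09 and 5.89 FPKM in the UM-164 libraries and 3.51 and 2.24 FPKM in the vehicle libraries. Among all genes tested 25.5% were lower and 27.7% higher without overlap. The part of these markers in the splicing gene values was not tested. Of the markers of other cells, PTPRC, CD3E, PECAM1, CDH5, VWF, EPCAM and CDH1 stayed at or below 0.388 FPKM in all 4 libraries, while CD68 lay between 16.7 and 20.2 FPKM and KRT8 between 4.96 and 7.34 FPKM.

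Splicing genes were among the well expressed genes of these cells, and most of them were slightly lower after UM-164. Of the 54 members, 53 passed the filter on low values. The exception was SRSF12, an SR-related protein gene, at 0.0318 and 0.0207 FPKM in the UM-164 libraries and 0.0829 and 0.0933 FPKM in the vehicle libraries. Mean levels of the 53 ran between 4.38 FPKM for SRSF10 and 347 FPKM for SNRPB, with a median of 31.2 FPKM, against a median of 5.21 FPKM over all genes tested. Fold changes were below 0 for 41 of them (77.4%) and above 0 for 12. Over all genes tested 48.1% were below 0, and 52.7% at a mean of at least 5 FPKM. The median log2 fold change of the members was -0.17, against 0.01 over all genes tested and 0.00 over the 10044 protein-coding genes tested. In 30 of the 53 (56.6%) both UM-164 libraries were lower than both vehicle libraries, in 6 (11.3%) both were higher, and in 17 the groups overlapped. Among all genes tested 25.5% lay below in this way and 27.7% above. At a mean of at least 5 FPKM, nearer to the level of most members, the share below was 58.8% of 51 members, against 31.6% of all 5896 genes.

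No member passed the test at an adjusted p under 0.05 in limma, while 1.31% of all genes tested did (151 genes, 52 higher and 99 lower). At an unadjusted p under 0.05 in limma, 15 of 53 members were lower and 1 was higher, and over all genes tested the shares were 10.6% lower and 9.47% higher. Among genes at a mean of at least 5 FPKM, nearer to the level of most members, these were 15 and 1 of 51 members. Of all 5896 genes at that level, 906 were lower and 632 higher. The differences were small and spread over many members, as the plot of levels in each library shows.

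**Figure D1:**
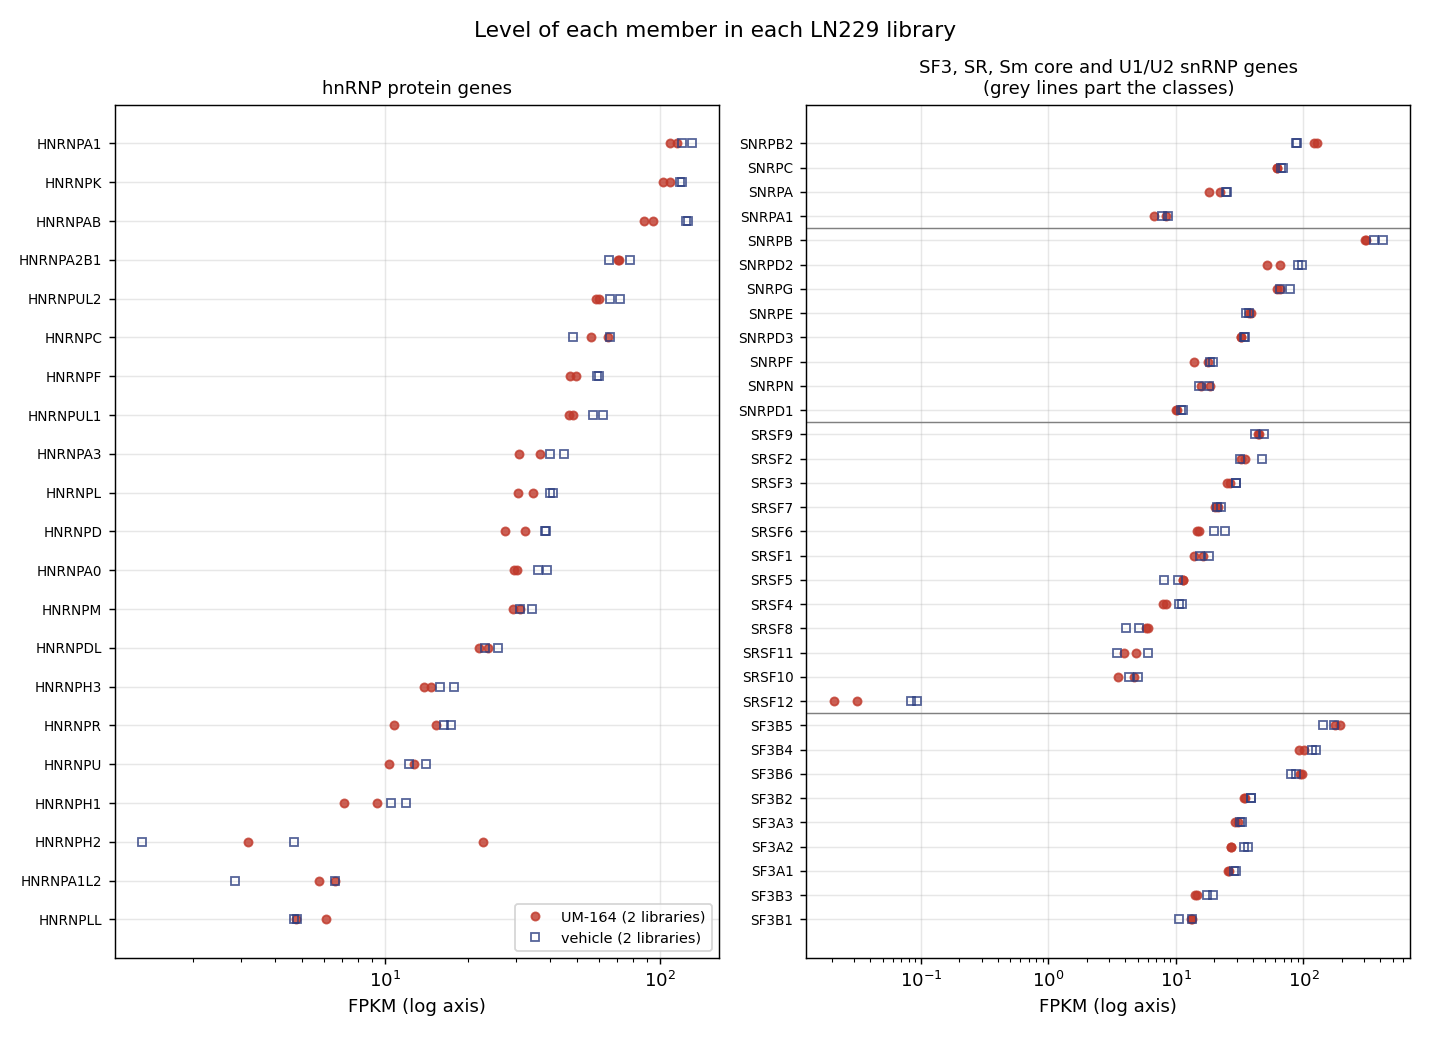
Level of each of the 54 members in each library, with FPKM on a log axis, UM-164 libraries as filled circles and vehicle libraries as open squares (2 libraries each). The circles mostly lie a little to the left of the squares, HNRNPH2 spreads widely among the hnRNP genes, and SRSF12 is the member far below 1 FPKM.

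Summed over the 54 genes, FPKM came to 2332 and 2299 in the UM-164 libraries and to 2614 and 2534 in the vehicle libraries. As a share of the FPKM of protein-coding genes this was 0.884% and 0.883% in the UM-164 libraries, below the 0.995% and 0.999% of the vehicle libraries. Centred on each gene's mean over the 4 libraries, the median member stood at -0.06 and -0.10 (log2) in the UM-164 libraries and at 0.05 and 0.12 in the vehicle libraries. The composition of the libraries moved with treatment too. Protein-coding genes made up 83.4% and 81.7% of all FPKM in the UM-164 libraries and 89.7% and 90.1% in the vehicle libraries, and genes typed only as lncRNA made up 9.95% and 11.3% in the UM-164 libraries and 4.27% and 3.88% in the vehicle libraries. With protein-coding genes rescaled to the same sum in each library, the median log2 fold change of the members was -0.19. Under that scaling HNRNPAB (adjusted p = 0.0361), SNRPB2 (adjusted p = 0.0387) and SNRPD2 (adjusted p = 0.0441) passed the limma test, with SNRPB2 higher and the others lower. The same scaling called 323 of all 10044 genes tested (96 higher and 227 lower), against 151 of 11516 without it. These are bulk libraries, in which less RNA of a gene in each cell and fewer cells that carry it cannot be told apart.

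**Figure D2:**
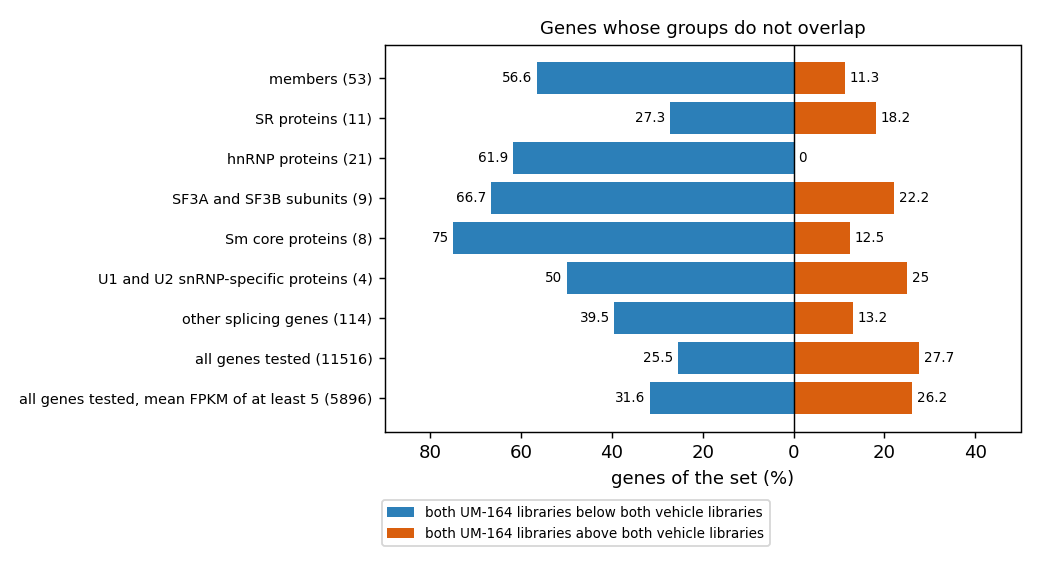
Share of each gene set in which the UM-164 libraries were both lower than the vehicle libraries (bars to the left) or both higher than them (bars to the right), in percent of the genes tested in the set, with the number of genes in parentheses. The members reach 56.6% below and 11.3% above, against 25.5% and 27.7% of all genes tested, and no hnRNP gene lay above.

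The promoters of these genes differ by class, and a few are shown from the classes whose levels are described next. Those printed had the smallest limma p-values among genes with the motif and at least 100 bases before the outermost start. SRSF6 was taken by p-value without regard to a motif, and SNRPD2 was added separately. They therefore do not stand for their classes, and no link between motif and fold change can be read from them. Windows of 250 bases before to 50 bases after the transcription start, from RefSeq on GRCh38.p14, were at hand for 49 of the 53 tested members, not for HNRNPA1, SF3B3, SNRPD1 and SRSF2, and a gene was counted if any of its windows held the motif on either strand. The CCAAT box (CCAAT, or ATTGG on the other strand), the sequence bound by NF-Y, was in 25 of 49 members (51%), in 43.7% of the 8385 tested genes with a window and in 39.7% of all 27305 genes. It was in 17 of 20 hnRNP genes, 3 of 7 Sm core genes, 2 of 4 U1 and U2 genes, 2 of 10 SR genes and 1 of 8 SF3 genes. The core of ETS factor sites (CCGGAAG, or CTTCCGG) was in 6 of 8 SF3 genes, 4 of 7 Sm core genes, 3 of 4 U1 and U2 genes, 2 of 10 SR genes and 3 of 20 hnRNP genes. Over the members this was 36.7%, over tested genes 24% and over all genes 12.2%. The E-box CACGTG was in 8 members, 7 of them hnRNP genes (16.3% of members, 12.9% of tested genes and 8.77% of all genes). The AP-1 motif TGACTCA, or TGAGTCA on the other strand, was in 2 members (4.08%, 4.51% and 6.05%) and the motif of the TEAD factors, the partners of YAP (GGAATG, or CATTCC), in 6 (12.2%, 14.4% and 16.7%), in the same order of members, tested genes and all genes. The stretches below are 100 bases from before the outermost annotated start, placed as near to it as holds the most matches of the motif shown. The exception is SNRPD2, with 30 bases around its ETS core, which lie inside the gene and overlap an exon of a longer annotated transcript. They are printed with the CCAAT box or the ETS core in capitals and no capitals where neither occurred. A match is a description of the letters and not of a bound site.
HNRNPAB (chr5:178204407-178204506, plus strand, 2 CCAAT boxes): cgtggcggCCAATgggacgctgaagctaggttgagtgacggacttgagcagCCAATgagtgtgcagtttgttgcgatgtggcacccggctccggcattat
HNRNPA0 (chr5:137754377-137754476, minus strand, 1 CCAAT box, as ATTGG): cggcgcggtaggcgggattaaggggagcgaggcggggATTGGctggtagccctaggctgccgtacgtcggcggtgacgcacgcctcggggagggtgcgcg
HNRNPL (chr19:38852348-38852447, minus strand, 1 CCAAT box): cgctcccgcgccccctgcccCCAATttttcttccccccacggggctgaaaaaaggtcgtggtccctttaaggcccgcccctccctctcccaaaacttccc
SNRPB2 (chr20:16729861-16729960, plus strand, 1 ETS core): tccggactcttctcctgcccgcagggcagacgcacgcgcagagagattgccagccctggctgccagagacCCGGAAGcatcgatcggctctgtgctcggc
SF3B6 (chr2:24076444-24076543, minus strand, 2 ETS cores, 1 on each strand): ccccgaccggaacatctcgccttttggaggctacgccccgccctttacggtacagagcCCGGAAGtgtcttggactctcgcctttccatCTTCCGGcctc
SNRPC (chr6:34757291-34757390, plus strand, 2 overlapping ETS cores): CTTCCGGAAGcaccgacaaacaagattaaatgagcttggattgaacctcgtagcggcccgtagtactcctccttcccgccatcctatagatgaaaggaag
SNRPD2 (chr19:45692361-45692390, minus strand, 1 ETS core): ggtccatgcccCTTCCGGatgtaggcaggg
SRSF6 (chr20:43457796-43457895, plus strand, neither motif): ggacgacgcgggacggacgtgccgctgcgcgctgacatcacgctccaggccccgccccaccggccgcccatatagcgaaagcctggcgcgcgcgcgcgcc

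Among the proteins specific to U1 or U2, SNRPB2 stood apart. It encodes the B″ protein of U2, which binds a stem-loop of the U2 RNA together with the A′ protein, and it was the member with the lowest adjusted p. SNRPB2 (chr20:16729961-16742563, plus strand) was measured at 121.2 and 128.5 FPKM in the UM-164 libraries, against 88.4 and 88 FPKM in the vehicle libraries. Both treated libraries were above both controls, by 41.5% on the means, with a log2 fold change of 0.50 (SE 0.08, 95% interval 0.30 to 0.70, adjusted p = 0.0635 in limma). Among genes at a mean of at least 5 FPKM alone its adjusted p was 0.0476 in limma, past the threshold. With that filter 224 of all 5896 genes passed, and of the members only SNRPB2. No other annotated gene shared its exons. Its partner in the U2 particle, SNRPA1, which encodes that A′ protein, was at 6.7 and 8.35 FPKM in the UM-164 libraries and 7.77 and 8.59 FPKM in the vehicle libraries, and the groups overlapped. SNRPA, which encodes the related A protein of the U1 particle, was at 22.2 and 18.3 FPKM in the UM-164 libraries and at 25.1 and 24.7 FPKM in the vehicle libraries (log2 fold change -0.30, SE 0.12, adjusted p = 0.262 in limma, and -0.16 without UM-164 replicate 2). SNRPC, for the C protein of U1 that helps U1 hold the 5′ splice site, varied little, with 62.3 and 62.4 FPKM in the UM-164 libraries and 67.1 and 68.7 FPKM in the vehicle libraries. The fold changes of SNRPA and SNRPC did not pass the test, and their 95% intervals, -0.60 to 0.01 and -0.32 to 0.07, included 0. SNRPB2 and SNRPC both carried the ETS core printed above and lay on opposite sides of 0.

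The Sm core genes encode the ring that every major spliceosomal snRNP other than U6 carries. In 6 of the 8 (75%) both UM-164 libraries were lower than both vehicle libraries, against 25.5% of all genes tested. At a mean of at least 5 FPKM the share of all genes was 31.6%. SNRPD2, which encodes SmD2, had the largest decrease of any member in the fit of all 4 libraries. It was measured at 65.7 and 51.4 FPKM in the UM-164 libraries and at 97.4 and 89.8 FPKM in the vehicle libraries (chr19:45687454-45692569, minus strand). The level was thus 37.5% lower on the means, with a log2 fold change of -0.68 (SE 0.14, 95% interval -1.04 to -0.33, adjusted p = 0.0918 in limma). Without UM-164 replicate 2 it was -0.51, against -0.56 for SRSF6, and without vehicle replicate 1 it was -0.62, against -0.69 for SRSF6. It was -0.86 without UM-164 replicate 1 and -0.74 without vehicle replicate 2. SNRPB, for SmB and SmB′, was the most abundant member of all, at 309.9 and 302.7 FPKM in the UM-164 libraries and 420.7 and 356.4 FPKM in the vehicle libraries. Its log2 fold change was -0.34 (SE 0.11, adjusted p = 0.185 in limma), and its groups did not overlap although the vehicle libraries lay far apart; without vehicle replicate 1 it was -0.22. SNRPF (SmF) was at 17.9 and 13.8 FPKM in the UM-164 libraries and 19.4 and 18.6 FPKM in the vehicle libraries, so 1 treated library lay close to the controls. The log2 fold change of SNRPF was -0.26, and it was -0.08 without UM-164 replicate 2 and -0.45 without UM-164 replicate 1. SNRPG (SmG) was at 62 and 65.2 FPKM in the UM-164 libraries and 78.6 and 65.6 FPKM in the vehicle libraries, and the nearest libraries of the groups almost touched. SNRPD1 and SNRPD3 differed by less, at -0.12 and -0.10 on the log2 scale. SNRPE (SmE) was the Sm gene above 0 without overlap, at 39.1 and 37.7 FPKM in the UM-164 libraries and 37.2 and 35.2 FPKM in the vehicle libraries. SNRPN, an imprinted paralog of SNRPB expressed mainly in neurons, overlapped at 15.8 and 18.6 FPKM in the UM-164 libraries and 18.2 and 15.2 FPKM in the vehicle libraries. The ring takes up its proteins in equal numbers, and the log2 fold changes of these 8 genes spanned -0.68 to 0.08.

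Of the 9 SF3A and SF3B genes, 6 (66.7%) were lower without overlap, 2 (22.2%) were higher without overlap and 1 overlapped. Among all genes tested 25.5% were lower and 27.7% higher without overlap, and at a mean of at least 5 FPKM 31.6% and 26.2%. SF3A2, a subunit that contacts the pre-mRNA, was measured at 27.2 and 26.8 FPKM in the UM-164 libraries and 36.5 and 34.2 FPKM in the vehicle libraries. That is a log2 fold change of -0.38 (SE 0.09, 95% interval -0.60 to -0.16, adjusted p = 0.109 in limma). SF3B4 was at 100.3 and 92.5 FPKM in the UM-164 libraries and 126 and 116.5 FPKM in the vehicle libraries, 20.5% lower on the means. SF3B3 was at 14.2 and 14.5 FPKM in the UM-164 libraries and 17.6 and 19.4 FPKM in the vehicle libraries, 22.3% lower. In each of these 3 the treated libraries lay close together and clear of the controls, and none passed the adjusted test (adjusted p = 0.15 for SF3B4 and 0.155 for SF3B3 in limma). SF3A1, SF3A3 and SF3B2 were lower by 7.7% to 11.2%. The small subunits SF3B5 and SF3B6, the second of which lies next to the branch point adenosine, were above the controls. SF3B5 was at 177.9 and 192.3 FPKM in the UM-164 libraries and 174.1 and 142.2 FPKM in the vehicle libraries, and SF3B6 at 98.1 and 94.5 FPKM in the UM-164 libraries and 87.2 and 80 FPKM in the vehicle libraries. Their log2 fold changes were 0.23 (SE 0.12) and 0.20 (SE 0.09), and that of SF3B5 was 0.09 without vehicle replicate 2 and 0.38 without vehicle replicate 1. SF3B1, the scaffold of the complex and the target of splicing inhibitors, overlapped, with 13.4 and 13.2 FPKM in the UM-164 libraries and 10.5 and 13.4 FPKM in the vehicle libraries.

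Groups overlapped for 6 of the 11 SR protein genes tested, and for 5387 of all 11516 genes tested. Without overlap 27.3% of the SR genes were lower and 18.2% higher, against 25.5% and 27.7% of all genes tested. SRSF6, an SR protein that binds exonic enhancers, was measured at 14.7 and 15.1 FPKM in the UM-164 libraries and 19.8 and 24.3 FPKM in the vehicle libraries. It was 32.5% lower on the means, with a log2 fold change of -0.54 (SE 0.12, 95% interval -0.87 to -0.22, adjusted p = 0.111 in limma). SRSF4 was at 7.96 and 8.34 FPKM in the UM-164 libraries and 10.6 and 11.1 FPKM in the vehicle libraries (log2 fold change -0.39, SE 0.10, adjusted p = 0.133 in limma). In both genes all libraries of a group were well clear of the other group. SRSF3, the smallest SR protein, was lower by 12.5%, at 25.2 and 26.4 FPKM in the UM-164 libraries and 29.5 FPKM in each vehicle library. SRSF5 and SRSF8 were higher without overlap, short of the test's threshold. SRSF5 was at 11.3 and 11.4 FPKM in the UM-164 libraries and 8.1 and 10.4 FPKM in the vehicle libraries, and SRSF8, a paralog of SRSF2, at 5.87 and 5.99 FPKM in the UM-164 libraries and 4.09 and 5.12 FPKM in the vehicle libraries. SRSF8 had a log2 fold change of 0.34 (SE 0.14, adjusted p = 0.271 in limma), and of 0.19 without vehicle replicate 1. The 2 most abundant SR genes overlapped: SRSF9 at 44.6 and 44.2 FPKM in the UM-164 libraries and 49 and 41.9 FPKM in the vehicle libraries, and SRSF2 at 34.7 and 32.1 FPKM in the UM-164 libraries and 31.9 and 47.4 FPKM in the vehicle libraries. The second vehicle library alone lies above the rest for SRSF2, whose log2 fold change of -0.22 was 0.07 without it and -0.50 without vehicle replicate 1. For SRSF9 the value of -0.03 was 0.08 without vehicle replicate 1 and -0.14 without vehicle replicate 2. SRSF1, SRSF7, SRSF10 and SRSF11 overlapped as well, with log2 fold changes between -0.18 and -0.05.

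The hnRNP genes made up the largest class, and of the 21 tested 13 (61.9%) were lower without overlap and none higher. Among all genes tested 25.5% were lower and 27.7% higher in this way, and at a mean of at least 5 FPKM 31.6% and 26.2%. HNRNPAB, a binder of single-stranded nucleic acid related to HNRNPD, was measured at 94.9 and 87.6 FPKM in the UM-164 libraries and 127.1 and 124.3 FPKM in the vehicle libraries (chr5:178204507-178211163, plus strand). The log2 fold change was -0.46 (SE 0.08, 95% interval -0.68 to -0.25, adjusted p = 0.0773 in limma), 27.4% lower on the means. The gap between the groups was several times the gap within either group. HNRNPF, which binds runs of G, was at 49.7 and 47 FPKM in the UM-164 libraries and 59.4 and 60.1 FPKM in the vehicle libraries (log2 fold change -0.30, SE 0.08, adjusted p = 0.145 in limma). HNRNPUL1 was at 48.5 and 46.9 FPKM in the UM-164 libraries and 57.4 and 62.2 FPKM in the vehicle libraries (log2 fold change -0.32, SE 0.09, adjusted p = 0.146 in limma). HNRNPA0, an AU-rich element binding protein that is phosphorylated by MK2, a kinase downstream of p38, was at 30.3 and 29.4 FPKM in the UM-164 libraries and 38.9 and 36.2 FPKM in the vehicle libraries. It was 20.6% lower on the means (log2 fold change -0.33, SE 0.09, adjusted p = 0.147 in limma). HNRNPD, HNRNPL, HNRNPH1 and HNRNPA3 also had 95% intervals below 0, with means lower by 19.5% to 26.5%. HNRNPD, also called AUF1, binds AU-rich elements and speeds the decay of their mRNAs, and HNRNPL binds CA repeats. HNRNPR, HNRNPH3, HNRNPUL2, HNRNPK and HNRNPA1 were lower without overlap by 10.4% to 22.9%, with intervals that included 0.

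The 2 most abundant hnRNP genes were in that last group. HNRNPA1, which represses exons through silencer elements, was at 108.8 and 116.1 FPKM in the UM-164 libraries and 120.5 and 130.6 FPKM in the vehicle libraries (log2 fold change -0.16, SE 0.09, adjusted p = 0.381 in limma, and -0.10 without vehicle replicate 2). HNRNPK, a poly(C) binding protein, was at 108.7 and 103 FPKM in the UM-164 libraries and 119 and 120.4 FPKM in the vehicle libraries (log2 fold change -0.18, SE 0.08, adjusted p = 0.293 in limma). Neither difference was larger than the test could separate from the spread between libraries. HNRNPA2B1 was close to equal at 70.6 and 71.3 FPKM in the UM-164 libraries and 65.6 and 77.8 FPKM in the vehicle libraries, and HNRNPC, which binds uridine tracts, at 64.7 and 56.4 FPKM in the UM-164 libraries and 66 and 48.3 FPKM in the vehicle libraries.

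**Figure D3:**
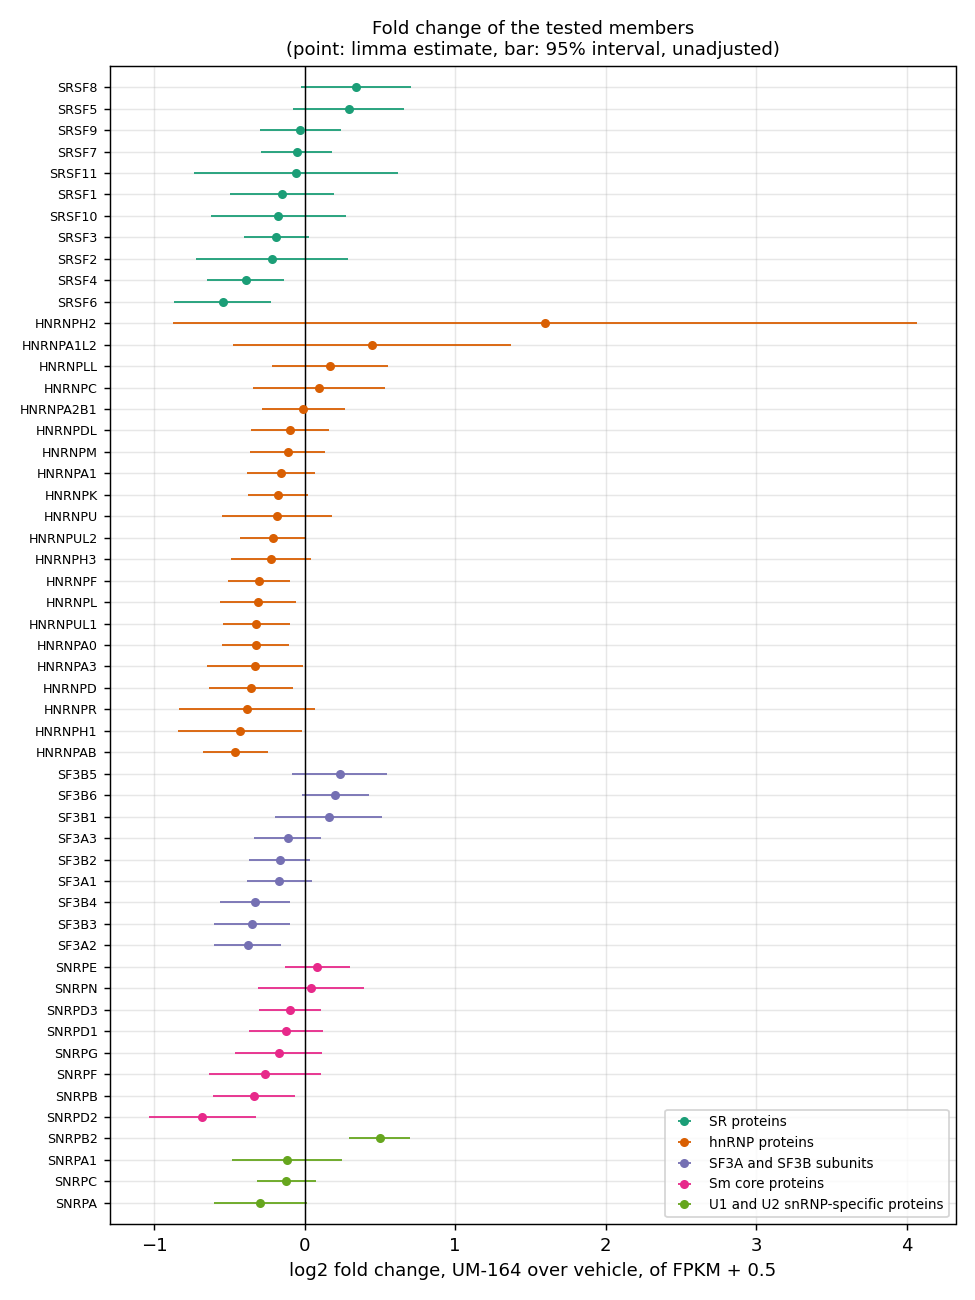
Log2 fold change of FPKM + 0.5, UM-164 over vehicle, for the 53 members tested, ordered within each class, with the limma estimate as a point and its unadjusted 95% interval as a bar (2 libraries per group). Most points lie left of 0, SNRPD2 is the lowest at -0.68, SNRPB2 is the member whose whole interval lies right of 0, and HNRNPH2 has the widest interval.

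HNRNPH2 had the highest fold change of the members but also the least stable values. It was listed at 3.19 and 22.8 FPKM in the UM-164 libraries and 4.66 and 1.31 FPKM in the vehicle libraries, so that a single treated library was high (log2 fold change 1.60, SE 0.97, adjusted p = 0.416 in limma). The gene shares 16.3% of its exon bases with RPL36A-HNRNPH2, a readthrough gene on the same strand, which was listed at 11.2 and 0 FPKM in the UM-164 libraries and 8.46 and 10.7 FPKM in the vehicle libraries. The library in which HNRNPH2 was high was thus the library in which the readthrough gene was listed at 0. Added together the entries came to 14.4 and 22.8 FPKM in the UM-164 libraries and 13.1 and 12 FPKM in the vehicle libraries, still highest in that library. RPL36A itself, a ribosomal protein gene at the same locus, was at 62.8 and 63.6 FPKM in the UM-164 libraries and 53 and 48.7 FPKM in the vehicle libraries. How reads were divided between the entries was not tested.

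**Figure D4:**
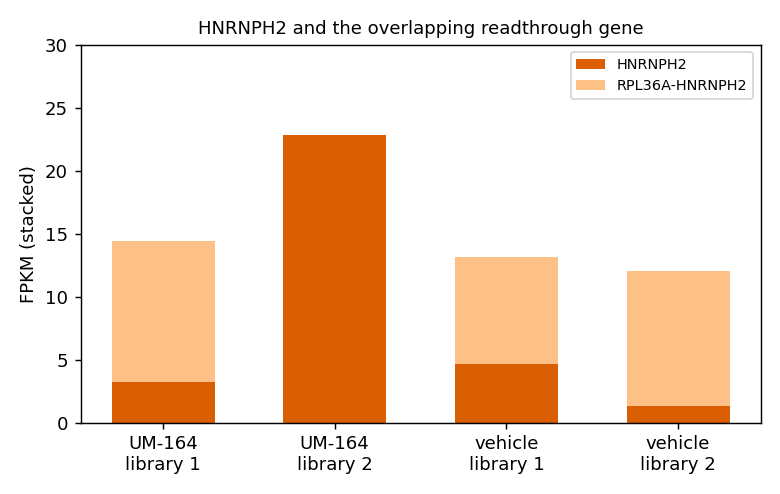
FPKM of HNRNPH2 (dark) and of the overlapping readthrough gene RPL36A-HNRNPH2 (light), stacked, in each of the 4 libraries. The second UM-164 library holds 22.8 FPKM of HNRNPH2 and 0 of the readthrough gene, while in the other 3 libraries the readthrough gene is the larger entry.

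Other members share sequence with copies, so the values of some are uncertain. The longest protein-coding transcripts of HNRNPA1 and HNRNPA1L2, an intronless copy, were 98.4% identical over 1350 aligned bases, those of HNRNPH1 and HNRNPH2 84% over 2164, those of SNRPB and SNRPN 81.9% over 697 and those of SRSF2 and SRSF8 81.6% over 1062. HNRNPA1L2 was at 5.75 and 6.57 FPKM in the UM-164 libraries and 2.85 and 6.59 FPKM in the vehicle libraries. HNRNPA1 also has 33 listed pseudogenes, which summed to 36.9 and 48.9 FPKM in the UM-164 libraries and to 47.2 and 56.4 FPKM in the vehicle libraries. The 6 listed for SNRPG summed to 21.5 and 27.3 FPKM in the UM-164 libraries and to 36.3 and 32.8 FPKM in the vehicle libraries, lower with treatment as SNRPG was, and the 6 listed for HNRNPC to 26.2 and 27.8 FPKM in the UM-164 libraries and to 24.5 and 21.7 FPKM in the vehicle libraries. Reads of such copies may have been assigned either way. Antisense partners overlap SRSF9 (GATC, over 46.2% of its exon bases) and SRSF2 (MFSD11, over 36.7%), and no source used here states whether strand entered the counting. GATC lay between 7.08 and 8.18 FPKM and MFSD11 between 5.23 and 7.25 FPKM in the 4 libraries, well below the genes they overlap. Antisense partners at levels nearer to the member included COX20, over 15.6% of the exon bases of HNRNPU (5.43 to 8.39 FPKM, against 10.4 to 14.1 FPKM for HNRNPU), and GUCD1, over 12.6% of those of SNRPD3 (32.4 to 34.7 FPKM, against 32.1 to 34.6 FPKM for SNRPD3). Over smaller shares, TGFB1 overlaps 3.29% of HNRNPUL1 (69.7 to 76.8 FPKM, above the 46.9 to 62.2 FPKM of HNRNPUL1). CBX3 overlaps 3.97% of HNRNPA2B1 (36.3 to 40.5 FPKM, against 65.6 to 77.8 FPKM for HNRNPA2B1). For SRSF1, 56.6% of the exon bases are shared with AC015813.2 on the same strand, which did not exceed 1.02 FPKM, and for HNRNPUL2 44.1% are shared with HNRNPUL2-BSCL2, which was at 0.598 and 0.397 FPKM in the UM-164 libraries and 3.78 and 0.55 FPKM in the vehicle libraries.

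Many members are annotated with transcripts that are degraded or retained in the nucleus, a known means by which SR proteins and hnRNPs limit their own levels. Transcripts subject to nonsense-mediated decay were listed in the deposited table for 27 of the 53 members (50.9%) and for 36.2% of the protein-coding genes tested. The share was 10 of 11 among SR genes and 11 of 21 among hnRNP genes, but 3 of 9 among SF3 genes and 1 of 8 among Sm core genes. Transcripts with a retained intron were listed for 34 of 53 members (64.2%), against 58.3%. A gene with more listed transcripts has more occasions to hold either type. The median number listed was 8 for the members and 6 for the protein-coding genes tested. By class it was 10 for hnRNP genes, 8 for SR and SF3 genes and 5 for Sm core genes. The part of this number in the shares was not tested. FPKM is given for a gene as a whole, so that a shift between productive and degraded transcripts is not visible in these values.

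The rest of the splicing pathway was compared with the members in 7 lists of 119 further genes, of which 113 were tested (as 114 entries, since MATR3 is listed under 2 identifiers). No entry passed at an adjusted p under 0.05 in limma. At an unadjusted p under 0.05, 21 were lower and 2 higher, against 10.6% and 9.47% of all genes tested. Without overlap 45 (39.5%) were lower and 15 (13.2%) higher, against 25.5% and 27.7% of all genes tested. The median log2 fold change of -0.06 lay between that of the members and that of all genes tested. The lists differed in this. Early spliceosome and U2 auxiliary factors, which act beside SF3A and SF3B, had a median of -0.21, and 8 of 12 were lower without overlap. SF1, the branch point binding protein that hands over to U2, was measured at 28.1 and 27.5 FPKM in the UM-164 libraries and 36.4 and 38.1 FPKM in the vehicle libraries (log2 fold change -0.42, SE 0.08, adjusted p = 0.0908 in limma). U2AF1, which reads the 3′ splice site, was at 7.25 and 5.67 FPKM in the UM-164 libraries and 9.77 and 9.27 FPKM in the vehicle libraries. All 6 genes of the exon junction complex list, the proteins deposited on mRNA after splicing, had fold changes below 0 with a median of -0.21. Of all genes tested 48.1% were below 0, and 52.7% at a mean of at least 5 FPKM. RNPS1 and MAGOHB had the smallest p-values of the list in limma (log2 fold change -0.32 each). The kinases, import factor and SR-related proteins that handle SR proteins had a median of -0.07, with TNPO3, the SR import receptor, at -0.34 and CLK3, an SR kinase, at -0.36.

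The remaining lists were centred nearer to 0. The median was -0.05 for the assembly factors that load Sm rings, where GEMIN4 and WDR77 were at -0.40 and -0.35, and 0.00 for other snRNP proteins, where SNRNP40 was at -0.28 and SNRNP35 at 0.29. SMN1 and SMN2 are nearly identical copies, so that their separate values are uncertain. Among tri-snRNP and catalytic step factors the median was -0.01, and 11 of 29 (37.9%) were lower and 9 of 29 (31%) higher without overlap, shares near those of all genes at a mean of at least 5 FPKM (31.6% and 26.2%). SLU7, a factor of the second catalytic step, was at 4.77 and 4.75 FPKM in the UM-164 libraries and 3.47 and 3.69 FPKM in the vehicle libraries (log2 fold change 0.37, SE 0.12, adjusted p = 0.188 in limma), and SART1 of the tri-snRNP at -0.27. Other RNA-binding regulators had a median of -0.01. PCBP1, a poly(C) binding protein, was at 167.5 and 171.6 FPKM in the UM-164 libraries and 217.5 and 216.6 FPKM in the vehicle libraries (log2 fold change -0.36, SE 0.07, adjusted p = 0.0971 in limma).

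**Figure D5:**
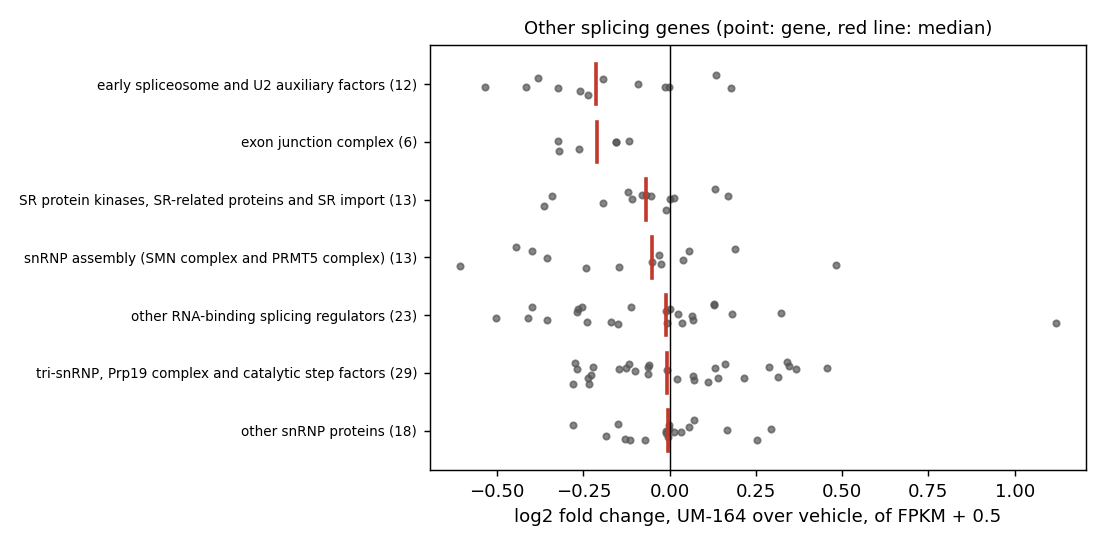
Log2 fold change of FPKM + 0.5, UM-164 over vehicle, for each tested gene of the 7 lists of other splicing genes, with the median of each list as a red line and the number of entries in parentheses. The medians of the early spliceosome and exon junction lists lie at -0.21, those of the other 5 lists between -0.07 and 0.00.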

How the data were processed

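Total RNA of LN229 cells was sequenced for the study in 2 libraries per group. The authors deposited a table of FPKM per gene, made from reads aligned with HISAT2 to GRCh38 (Ensembl release 101). The submitters' processing notes also list cutadapt 1.9 and FastQC, and the methods name DESeq2. The FPKM software was not given in the sources used here. Columns with the authors' own fold changes, p-values, q-values and calls in the table were not used. FPKM is relative to the mapped reads of a library, and its sum differed between libraries.

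Samples were grouped by their labels. For genes averaging at least 1 FPKM, log2(FPKM + 0.5) was tested by limma 3.58.1 under R 4.3.3 (variance trend, Benjamini-Hochberg at 0.05, 2 residual and 3.08 prior degrees of freedom), since the values are FPKM and not counts. On simulated data the test recovered 45.5% of genes changed by 1 on the log2 scale and 89.1% of those changed by 2. Smaller changes, such as most of those of the members, were not simulated. Values in every library were given for each class's 3 smallest p-values and 2 highest levels, and other members were named from their values. The values of 1 gene under the rule for the other splicing lists are not reported here. Members and lists were chosen with earlier results of these data known. Alternatives were the pseudocount (0.1 or 1), the filter, scaling, the variance trend, each library left out and the replicate number as a block. Gene coordinates and exons came from GENCODE release 29 on GRCh38 and transcripts were aligned with blastn 2.17.0. Tables and figures were made with Python 3.11.15, numpy 2.4.6, pandas 2.3.3 and matplotlib 3.10.9.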

Additional observations from a re-analysis of the deposited data

How the results depend on the processing

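The median log2 fold change of the members stayed below 0 under all 13 alternatives, between -0.19 and -0.13, the value nearest 0 being that without vehicle replicate 2 (-0.13). With each replicate left out it ranged from -0.19 to -0.13, no member passed, and 0 to 1 of the other splicing genes did (TARDBP without UM-164 replicate 1). Members lower without overlap numbered 29 to 31 under the scalings. A pseudocount cannot reorder the libraries of a gene and a filter only adds or drops genes, so those settings could not test this count. Over all genes the calls depended much more on the setting: 151 became 4 with no filter on low values, 323 with protein-coding genes rescaled (96 higher and 227 lower), 50 with no variance trend, and 5 to 118 with each replicate left out. Every fit with a replicate left out, of either group, gives the lone library the spread of the other group. Members called numbered 1 at a mean of at least 5 FPKM (SNRPB2), where 224 of all 5896 genes were called, and 3 with protein-coding genes rescaled. That scaling also called 1 other splicing gene. Of 260 values of 20 named members under the alternatives, 257 kept their direction, the exceptions being 3 values of SRSF2 and SRSF9. The filters, the variance trend and the replicate block cannot alter the fold change of a gene, and the pseudocounts hardly can. Only the scalings and the left-out replicates could thus test direction. This limit also applies to the median of the members, apart from members that a filter adds or drops. The replicate numbers share only a number (r = -0.06 over 11516 genes between the groups' differences of replicate 1 and 2), and with a replicate block 57 genes were called higher, 107 lower and 0 members, with a median of -0.17. Depth is unknown, and differences near the size of the members' shift were not separable from the spread between 2 libraries.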

Other observations

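MATR3, a nuclear matrix protein that regulates splicing, is listed under 2 identifiers. The entry ENSG00000280987 was at 1.28 and 9.69 FPKM in the UM-164 libraries and 0.893 and 11.8 FPKM in the vehicle libraries, and the entry ENSG00000015479 was at 11.6 and 4.4 FPKM in the UM-164 libraries and 9.38 and 5.6 FPKM in the vehicle libraries. The 2 entries moved in opposite directions between the libraries of each group, and neither separated the groups.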
